A study of Mus musculus with 186 samples.

Results

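The mitochondrial ribosomal protein genes are the nuclear genes named Mrps, for the small subunit of the mitochondrial ribosome, or Mrpl, for its large subunit. They were chosen by symbol, with pseudogenes left out, and a gene counted if its TPM, an abundance scaled to transcript length and a fixed total, reached 1 in 25% or more of the cells in any group. All 78 genes whose symbols fit the pattern passed that filter, 29 for the small and 49 for the large subunit, of 11680 genes tested and 55421 genes in the table. In 77 of them the filter was met in each of the 7 groups, and Mrpl1 met it in 6.

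RNA was sequenced from single inner cells of CD-1 mouse embryos, freed of their outer cells by immunosurgery. Fresh embryos were taken at E3.25 (19 cells, 2 experiments), E3.75 (22 cells, 2 experiments) and E4.0 (14 cells, 2 experiments). Other embryos were collected at E2.75 as morulae and cultured in KSOM medium with 10 µM LY, an inhibitor of the kinase PI3K, or with its vehicle DMSO. The 16-hour cultures gave 31 cells with DMSO and 31 with LY, and the 24-hour cultures 28 with DMSO and 24 with LY, each from 3 experiments. An experiment here is all cells of a group carrying the same date; each pooled several litters, so p-values measure the spread between experiments and not between embryos. The 16-hour experiments carry later dates than all the others, so culture time and date cannot be told apart.

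Mitochondria keep their own ribosome, which translates the few proteins encoded by mitochondrial DNA, all of them membrane subunits of the respiratory chain and of ATP synthase. Its RNAs come from mitochondrial DNA, whereas each of its proteins is encoded in the nucleus, made in the cytosol and imported. Many of the proteins descend from bacterial ribosomal proteins and others are found in mitochondria only. The small subunit reads the messenger RNA and the large subunit joins the amino acids. Inner cells of the blastocyst, the epiblast and primitive endoderm precursors, hold mitochondria that mature as the embryo implants.

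The cells carried the markers of inner cells. Pou5f1 was at a TPM of 1 or more in each of the 169 cells, Sall4 in 97.6%, Nanog in 97.0%, Gata6 in 90.5% and Sox2 in 71%. Among markers of trophectoderm, the outer layer, Cdx2 reached that level in 10.7% of cells, Tspan8 in 13%, Gata3 in 18.3% and Elf5 in 1.18%. The others were found more often: Krt8 in 94.1%, Krt18 in 81.7%, Ptges in 52.1%, Lgals3 in 43.8% and Eomes in 39.6%. The mean log2(TPM + 1) of these 9 markers was 4.27 in DMSO 16-hour replicate 1 and 1.13 to 2.31 in the other 17 experiments. The sequencing depth of a cell is unknown, since TPM does not keep it. Genes at a TPM of 1 or more numbered 3806 to 10220 per cell (median 6584). LY 24-hour replicate 1 had the fewest genes detected of the 18 experiments (4555.9 per cell) and DMSO 16-hour replicate 1, with 3 cells, the most (9995.0).

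Start regions of some members are shown because some of the genes share letters there. In RefSeq windows of 300 bases (250 before and 50 after the start; build GRCm38.p6), 69 of the 78 members were found, with 75 windows. Both strands were searched for 4 short motifs. GCANGCG, the core of the motif read by NRF1, was in 38.7% of member windows, 30.8% of those of all tested genes and 16.6% of all windows of that length. CCGGAAG, read by GABPA and other ETS factors, was in 34.7%, 19.8% and 8.86% of them. ATGGCGG, the core of the YY1 motif, was in 17.3%, 8.84% and 4.05%, and the E-box CACGTG in 9.33%, 10.6% and 7.15%. Of the 69 members 43 held the NRF1 core or the ETS motif, and 20 held none of the 4 motifs. ATGGCGG can also be the first codons of a protein. No difference between these shares was tested, and a match is a description and not a binding site. The stretches below come from the member with the highest level (Mrpl17), the steadiest member (Mrpl57), a member with opposite LY differences at the culture times (Mrpl44), a small subunit member of the decoding centre (Mrps12), an S18 paralog (Mrps18a) and the member furthest above E3.25 in 16-hour DMSO culture (Mrpl35). Capitals mark the matched letters, on either strand.
Mrpl17, NRF1 core, chr7:105811117-105811146, minus strand: aggctctgatgcGCACGCGcaaacgcggta
Mrpl57, NRF1 core, chr14:57826172-57826201, plus strand: tttgaatcctgcGCAGGCGcagaaggcgtc
Mrpl44, NRF1 core, chr1:79775973-79776002, plus strand: agaagcacttgcGCACGCGcagtacactag
Mrps12, ETS, chr7:28741803-28741832, minus strand: taaggaggaaccCCGGAAGgggctggaggt
Mrps18a, ETS, chr17:46110966-46110995, plus strand: cacacccctgctCCGGAAGcggaagtgcac
Mrpl35, YY1 core, chr6:71823741-71823770, minus strand: gcaggctgcaagATGGCGGcttccatcttc

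The genes were spread over 17 chromosomes, with 11 members on chromosome 11. For 33 of the 78 members (42.3%) another protein-coding gene started on the opposite strand within 1000 bases, against 18.4% of the 9461 tested protein-coding genes. Mrps11 and Mrpl46, a small and a large subunit gene, were each other's partner. Mrps12 faced Sars2, which charges the mitochondrial serine tRNA, Mrpl36 faced Ndufs6, a subunit of respiratory complex I, and Mrpl49 faced Fau, whose product carries a cytosolic ribosomal protein. Exons of 28 members (35.9%) overlapped a gene on the other strand, against 32.1% of the tested protein-coding genes. The library kit does not mark strand, so reads of such pairs cannot be told apart.

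The members were above the typical tested gene in level and in the share of cells that held them. Their mean TPM over the 7 groups had a median of 104 and ran from 7.83 (Mrpl50) to 712 (Mrpl17), against a median of 7.73 for all tested genes and 2510 for 89 genes of the cytosolic ribosome. A cell held a median of 73 members at a TPM of 1 or more (range 38 to 78). The median member was found in 93.2% of the cells, the median tested gene in 52.1%. Of the 78 members 49 were found in 90% of cells or more, and the least often found were Mrpl1 (55%), Mrpl50 (56.2%), Mrpl48 and Mrps31 (63.3% each). TPM is a level per transcript length, but these libraries start at the 3' end of transcripts, so the order of genes is approximate.

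In the small subunit the highest mean TPM was that of Mrps18b (527), followed by Mrps12 (445), a protein of the decoding centre, and Mrps24 (403). The lowest were Mrps31 (8.62), Mrps28 (8.76) and Mrps30 (10.4). In the large subunit the highest were Mrpl17 (712), Mrpl57 (514) and Mrpl30 (445), and the lowest Mrpl50 (7.83), Mrpl1 (10.1) and Mrpl9 (13.2). Mrpl17 lies on the minus strand of chromosome 7 (105803206 to 105811099, mm10), Mrps18b on the minus strand of chromosome 17 (35910379 to 35916389). The median mean TPM was 113 over small subunit members and 99.4 over large subunit members, and the ranges of both overlap almost whole.

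**Figure D1:**
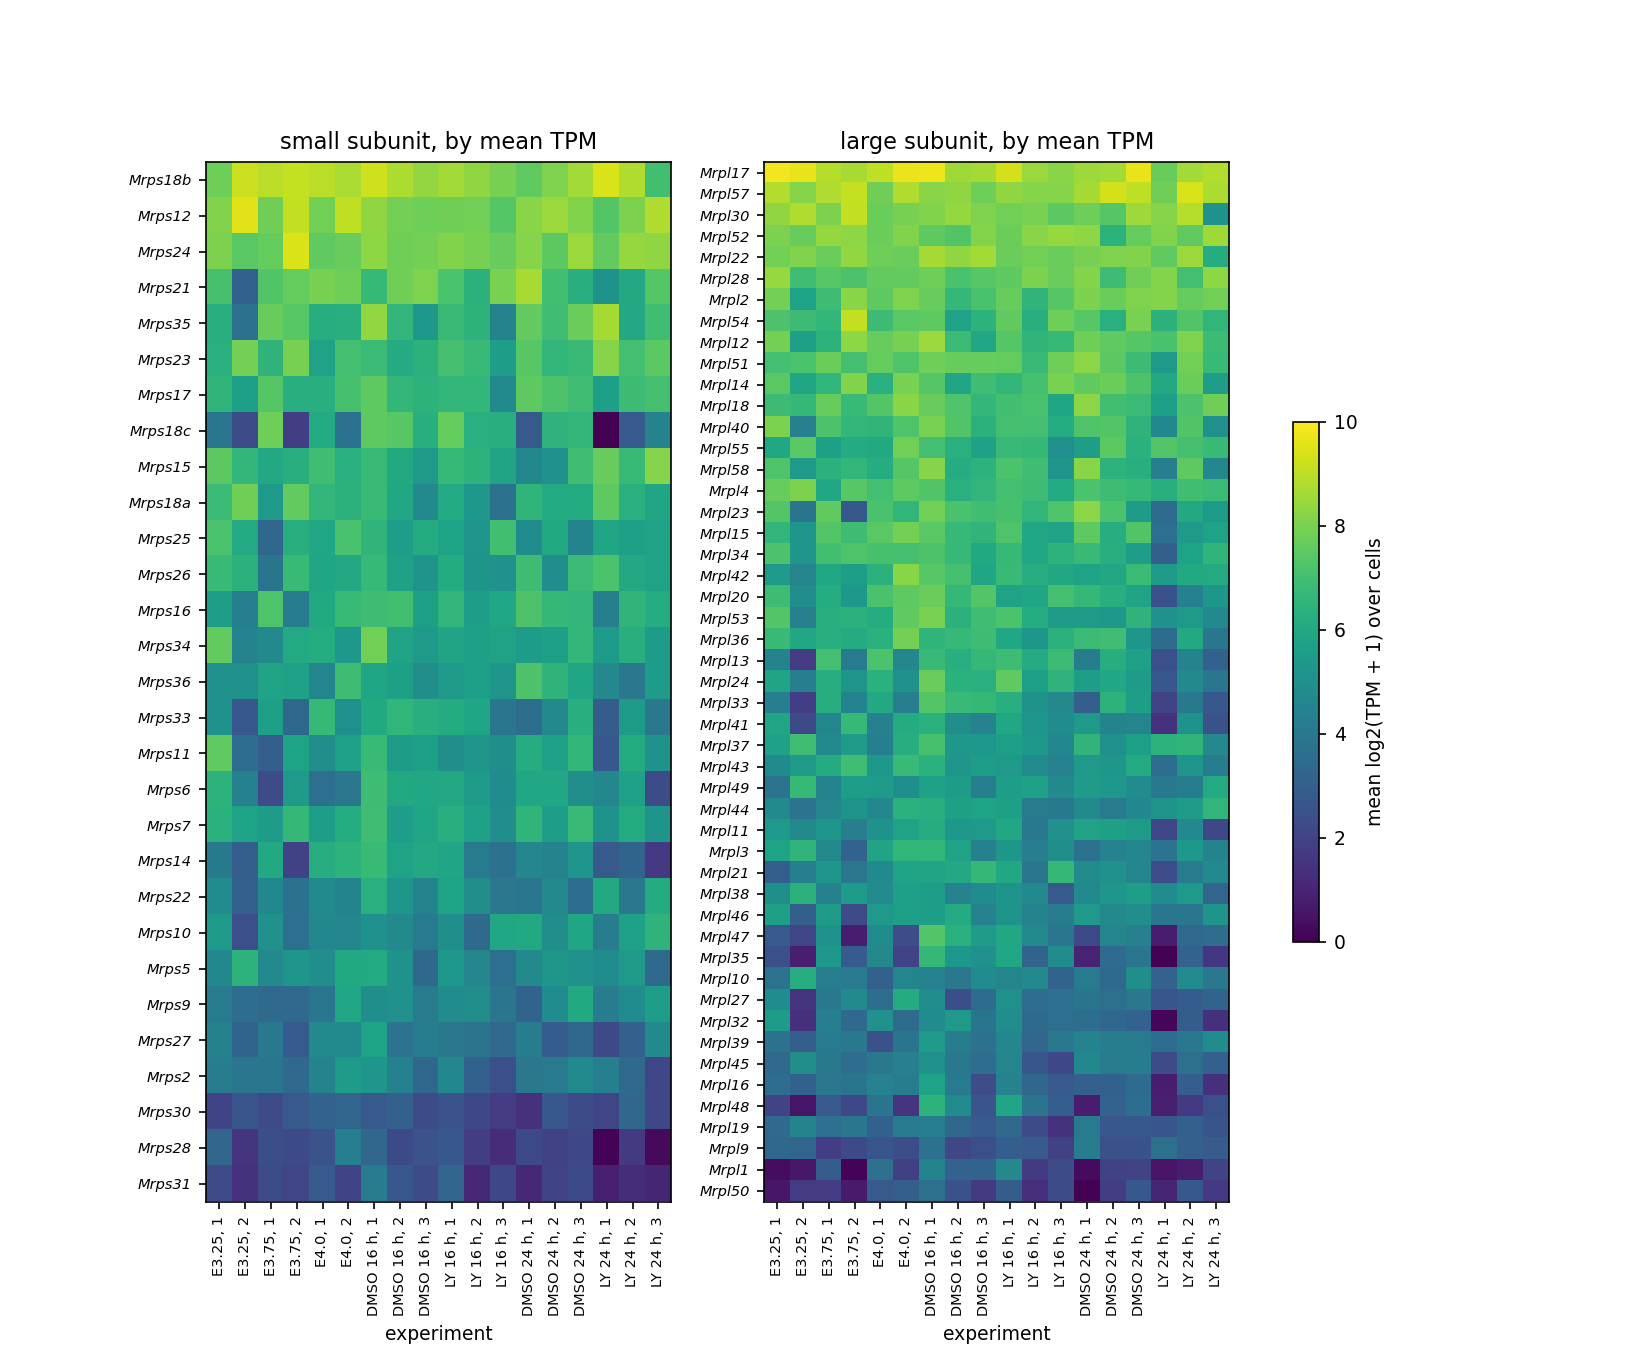
Level of each of the 78 members in each of the 18 experiments, as the mean over cells of log2(TPM + 1), with experiments in columns and members in rows ordered by mean TPM within each subunit. Mrps18b and Mrpl17 head their subunits, and Mrps18c, Mrpl35 and Mrpl47 vary most visibly between columns.

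Members differed in how steady they were between experiments of a group. The residual SD on the log2(TPM + 1) scale had a median of 0.88 over members, 0.68 over all tested genes and 0.73 over the cytosolic ribosomal protein genes. The median mean TPM of these sets was 104, 7.73 and 2510. Genes of like level were not compared, and the pseudocount of 1 understates the spread of low genes. Mrpl57 (0.46), Mrpl4 (0.48) and Mrps30 (0.50) had the smallest, Mrps30 at a mean TPM of only 10.4. The largest were those of Mrps18c (1.98), Mrpl23 (1.53), a protein of the exit tunnel, and Mrpl47 (1.49). Mrpl23 has a pseudogene, Mrpl23-ps1, listed at a mean of 56.9 TPM and found in 88.8% of cells, with which it can share reads, so its values are uncertain.

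Mrpl57 had the smallest spread between experiments of a group. At E3.25 its mean log2(TPM + 1) was 8.86 and 8.20, at E3.75 8.82 and 9.14, and at E4.0 7.83 and 8.79. Its experiments ran from 7.81 to 9.39 over all groups. It was 8.24, 8.33 and 7.81 in 16-hour DMSO culture and 8.33, 8.18 and 8.18 with LY. At 24 hours it was 8.65, 9.37 and 9.06 with DMSO and 7.85, 9.39 and 8.76 with LY. The LY and DMSO experiments overlapped at both times. All 24-hour DMSO experiments lay above all 16-hour DMSO ones, as in 252 of the 11680 tested genes.

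The 3 genes for S18 proteins differed in level and steadiness. Each encodes a homolog of bacterial S18; the products of Mrps18b and Mrps18c are in the small subunit, and that of Mrps18a is in the large subunit by structure despite its name. Mrps18b was found in every cell, Mrps18a in 97.6% and Mrps18c in 79.3%. At E3.25 Mrps18c was at 3.92 and 2.27, at E3.75 at 7.80 and 1.87, and at E4.0 at 6.11 and 3.77. It was at 7.50, 7.39 and 6.31 in 16-hour DMSO and 7.64, 6.34 and 6.30 in 16-hour LY. At 24 hours it was at 2.84, 6.50 and 6.63 with DMSO and 0.0, 2.88 and 4.42 with LY. Thus replicates of 1 group lay as far apart as any pair of group means at E3.75. At 24 hours the groups overlapped, although LY was lower on each date (-2.84, -3.63 and -2.20).

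**Figure D2:**
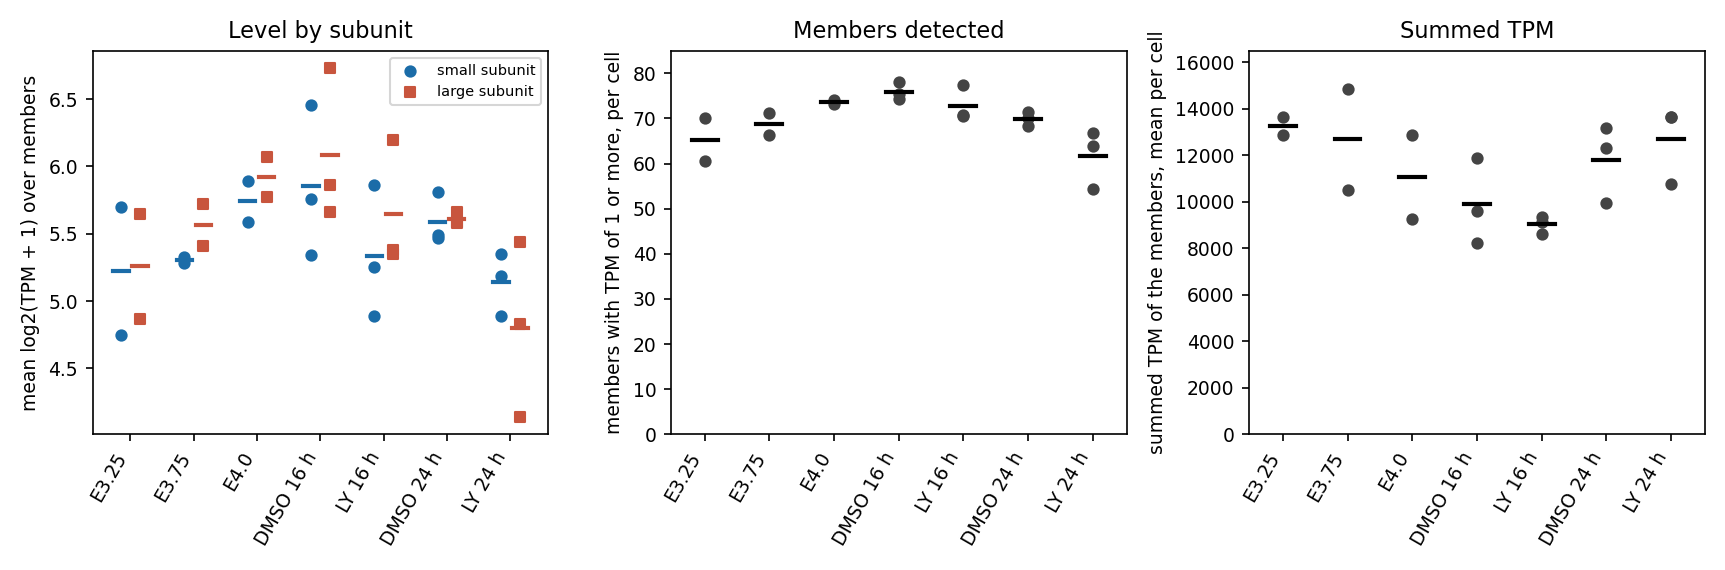
Points are experiments and lines group means. The panels give the mean log2(TPM + 1) of small and large subunit members, the members at a TPM of 1 or more per cell, and their summed TPM per cell. The 24-hour LY group has the lowest mean number of members detected (61.7) but a summed TPM of 12685, above the 11816 of 24-hour DMSO.

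The mean log2(TPM + 1) over all members was 5.25 ± 0.59 at E3.25 (SD, n = 2 experiments), 5.47 ± 0.13 at E3.75 (n = 2) and 5.85 ± 0.21 at E4.0 (n = 2). In culture it was 6.0 ± 0.57 in 16-hour DMSO, 5.53 ± 0.48 in 16-hour LY, 5.60 ± 0.10 in 24-hour DMSO and 4.93 ± 0.50 in 24-hour LY (n = 3 each). Members detected per cell were likewise highest in 16-hour DMSO (75.9) and lowest in 24-hour LY (61.7), while 16-hour LY (72.9) stood above 24-hour DMSO, the reverse of their mean levels. The summed TPM per cell was highest at E3.25 (13263 ± 534) and lowest in 16-hour LY (9031 ± 368). The TPM of each member was also averaged over only the cells of an experiment where it was found. The median of these means over members, averaged over experiments, was 130 in 24-hour LY and 82.7 in 16-hour LY. The logarithmic mean therefore falls with each member missing from a cell, whereas the sum is set by the cells with high values, and both are given below.

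Members detected per cell moved with all genes detected per cell. Over the 169 cells Pearson's r was 0.79, and within groups it ran from 0.65 (E4.0) to 0.85 (E3.75); cells share their experiment and library, so this is a description. A cell that shows fewer members and one whose transcripts were caught less often cannot be told apart.

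**Figure D3:**
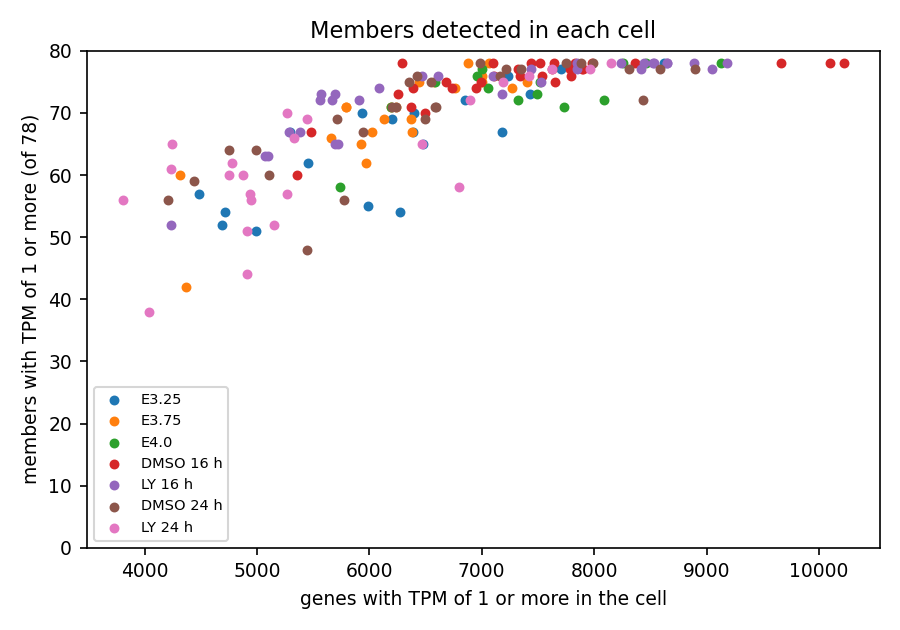
Each point is 1 of the 169 cells, placed by the genes at a TPM of 1 or more in the cell and by the members of the 78 at that level, and coloured by group. Cells with few genes detected also show few members, and the lowest, at 38 members, is a 24-hour LY cell.

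The mean levels of small and large subunit genes correlated at r = 0.73 over the 169 cells, again as a description. No other gene sets were compared in this way, and members detected per cell moved with all genes detected (r = 0.79). The part of detection in the correlation of the subunits was not tested. The small minus large difference in mean log2(TPM + 1) was above 0 in 4 of the 18 experiments and ran from -0.46 to 0.75. It was 0.75, -0.08 and 0.35 in the 24-hour LY experiments and -0.11, -0.09 and 0.15 in those with DMSO. The groups overlapped, and 24-hour LY replicate 1, with the highest value, is also the experiment with the fewest genes detected. With subunits assigned by structure (Mrps18a and Mrps30 to the large, Mrps36 left out) those LY values were 0.74, 0.03 and 0.46. Those with DMSO were -0.0, 0.01 and 0.32. By structure the difference was above 0 in more of the 18 experiments, among them 16-hour DMSO replicate 2 (0.05) and 16-hour LY replicate 2 (0.03).

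LY against DMSO at 16 hours asks what PI3K inhibition does early in culture. In limma's test with Benjamini-Hochberg adjustment no member passed the threshold of 0.05, and 0.0% of the 11680 tested genes did. At an unadjusted p under 0.05 there was 1 member, lower with LY, where 5.08% of all tested genes were. Of the members 65 lay below 0 and 13 above, where 76.4% of all tested genes lay below. Their median difference was -0.49 on the log2(TPM + 1) scale, against -0.33 over all tested genes, and was -0.51 for the small and -0.49 for the large subunit. On the log2 of the mean TPM it was -0.16, against -0.21 over all tested genes. With the number of genes detected as a covariate it was -0.01, and without DMSO replicate 1 (the experiment of 3 cells) -0.14. Without DMSO replicate 3 or without LY replicate 1 it was -0.76, and without LY replicate 3 -0.29. Trophectoderm markers lay on the same side: all 8 tested were lower than in DMSO in value (median -1.04), with 3 at an unadjusted p under 0.05 and none past the adjusted threshold in limma. Their mean log2(TPM + 1) was 4.27, 1.92 and 2.2 in the DMSO and 2.31, 1.64 and 1.54 in the LY experiments; their part in the members' difference was not tested.

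Mrps14, a small subunit protein near the decoding site, was lowest relative to DMSO at 16 hours. Its mean log2(TPM + 1) was 6.78, 5.79 and 6.02 with DMSO and 5.93, 4.13 and 3.73 with LY. LY was lower on each date (-0.85, -1.66 and -2.30), although the groups overlapped. The difference was -1.60 (SE 0.83, adjusted p = 0.854 in limma). Mrpl33 (-1.52) and Mrpl47 (-1.48) followed. Mrpl54 (0.62), Mrpl52 (0.50) and Mrpl14 (0.49) were furthest above DMSO, each within 1 SE or less of 0. The member with the unadjusted p under 0.05 was Mrpl44, whose protein has a ribonuclease fold and sits in the large subunit. It was at 6.31, 5.69 and 5.82 with DMSO and at 5.67, 4.11 and 4.06 with LY, which just failed to overlap. Of the 78 members 6 had all LY experiments below all DMSO experiments, against 8.84% of all tested genes, and none had them above, against 1.35%.

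At 24 hours 60 members lay below DMSO and 18 above, where 7854 of the 11680 tested genes lay below. No difference passed the test. The count of members past the threshold was 0 (limma, adjusted), as for all tested genes (0.0%). At an unadjusted p under 0.05 there were 12 members lower and 1 higher, against 4.55% of all tested genes lower and 0.719% higher. The median difference was -0.65, against -0.20 over all tested genes. It was -0.22 for the small and -0.68 for the large subunit. On the log2 of the mean TPM the member median was 0.06, against -0.07 over all tested genes. With genes detected as a covariate the member median was -0.18, and without LY replicate 1 -0.34. Genes detected per cell were 5439 ± 918 with LY and 6454 ± 648 with DMSO (SD, n = 3); their part in the difference was not tested.

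Mrpl11, which forms the base of the large subunit stalk, showed the smallest p. It was at 5.76, 5.70 and 5.44 in the DMSO experiments and 2.12, 4.77 and 2.18 with LY. All 3 LY experiments lay below all 3 DMSO experiments. The difference was -2.61 (SE 0.70, adjusted p = 0.899), with adjusted p from 0.157 to 1.0 over the alternatives. The share of cells with a TPM of 1 or more was 92.9% with DMSO and 58.3% with LY, at group mean TPMs of 88.5 and 46.7. Mrpl11 lies on the plus strand of chromosome 19 (4962147 to 4966999, mm10).

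Other large subunit genes lay on the same side. Mrpl20 was at 6.65, 6.30 and 5.85 with DMSO and 2.52, 4.39 and 5.29 with LY. Mrpl15 was at 7.53, 6.22 and 7.29 with DMSO and 3.64, 5.42 and 5.81 with LY. Neither overlapped, with differences of -2.20 and -2.06 and an adjusted p of 0.899 for each. In the small subunit Mrps14 was 2.23 lower on this scale (-2.23, SE 0.83), at 4.64, 4.49 and 5.25 with DMSO and 2.79, 3.24 and 1.65 with LY. Mrps18c had the largest negative difference (-2.89, SE 1.27), with overlapping groups. Mrps36, now known as a component of the 2-oxoglutarate dehydrogenase complex, was at 7.20, 6.49 and 5.93 with DMSO and 4.72, 4.01 and 5.50 with LY (-1.79, SE 0.63); it has pseudogenes that could share its reads. In all, 13 members had every LY experiment below every DMSO experiment, against 8.64% of tested genes.

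A few members pointed the other way at 24 hours. Mrps15, a small subunit protein that binds the ribosomal RNA, was at 4.67, 5.09 and 6.93 with DMSO and 7.67, 6.77 and 8.19 with LY. Its difference was 1.98 (SE 0.63, adjusted p = 0.899), with group mean TPMs of 93.3 and 263, and LY was higher on each date (3.0, 1.68 and 1.26), although the groups overlapped. Mrps22 (1.33) and Mrpl44 (1.22) followed. Mrpl44 was at 4.78, 4.16 and 4.67 with DMSO and 5.19, 5.50 and 6.58 with LY, and was the 1 member whose LY experiments all lay above DMSO, against 2.26% of all tested genes. Mrps12 (-0.22), Mrpl12 (-0.21), the stalk protein that also binds the mitochondrial RNA polymerase, Mrps18a (0.32) and Mrps18b (0.34) each lay within their SE of 0.

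**Figure D4:**
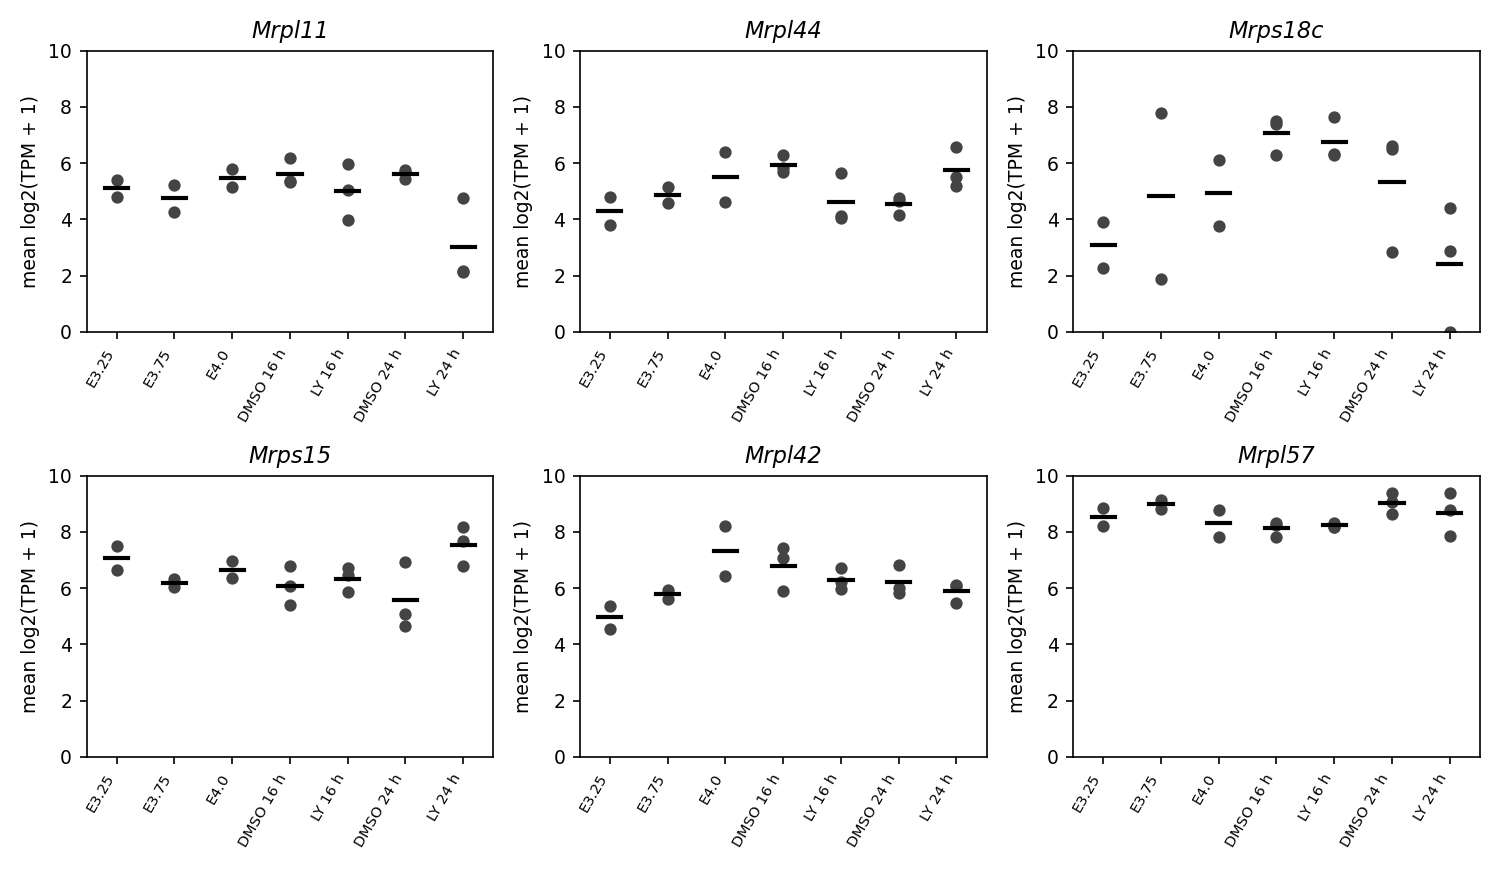
Mean log2(TPM + 1) of 6 members in each experiment (points) with group means (lines). Mrpl11 is lowest in 24-hour LY (2.12, 4.77 and 2.18), Mrpl44 is below its DMSO experiments at 16 hours and above them at 24 hours, and Mrpl57 stays between 7.81 and 9.39.

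Members of bacterial origin and those found only in mitochondria were set side by side by a list written after the values were known. The 48 bacterial-type members had a median difference of -0.87 at 24 hours, and the 29 others of -0.36, against -0.20 over all tested genes. On the log2 of the mean TPM these medians were -0.09, 0.19 and -0.07. At an unadjusted p under 0.05 in limma there were 11 bacterial-type members lower and 1 higher, and 0 of the others. Of all tested genes 4.55% were lower and 0.719% higher. Mrps36 was placed in neither class, and was the remaining 1 of the 12 members lower at that p. None passed the adjusted threshold. The assignment of Mrps28 and Mrpl55 was corrected after these counts had been seen, since their proteins are homologs of bacterial S1 and L31. As first written, with both in the other class, the medians were the same. At that p 10 of the 46 bacterial-type members were then lower and 1 higher, and 1 of the 31 others was lower. At 16 hours both classes had a median of -0.49.

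The LY difference at 24 hours minus that at 16 hours was tested in the same fit. No member passed the adjusted threshold, nor did any tested gene (0.0%), and 1 member was higher at an unadjusted p under 0.05, as were 1.6% of tested genes. The median was -0.12 over members and 0.10 over all genes, 0.16 for the small and -0.26 for the large subunit. Mrpl44 stood highest (2.55, SE 0.90, adjusted p = 1.0), then Mrps22 (1.79) and Mrps15 (1.73), and Mrps18c (-2.58), Mrpl13 (-2.09) and Mrpl11 (-1.98) lowest. Exons of Mrpl44 overlap Wdfy1 on the other strand; Wdfy1 was at -0.62 at 16 hours and -0.57 at 24 hours. Over the 6 dates, 15 members were lower with LY each time, against 8.71% of all tested genes. They were Mrpl11, Mrpl15, Mrpl17, Mrpl20, Mrpl33, Mrpl35, Mrpl36, Mrpl40, Mrpl43, Mrpl45, Mrpl47, Mrps14, Mrps28, Mrps31 and Mrps6, chosen for naming after their values were seen. Genes detected per cell were also fewer with LY on each of these dates, and their part was not tested. At 16 hours they were 8303.1, 6384.4 and 5808.8 with LY and 9995.0, 7155.9 and 7102.4 with DMSO. At 24 hours they were 4555.9, 6388.6 and 5373.4 with LY and 5726.0, 6667.6 and 6968.9 with DMSO.

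**Figure D5:**
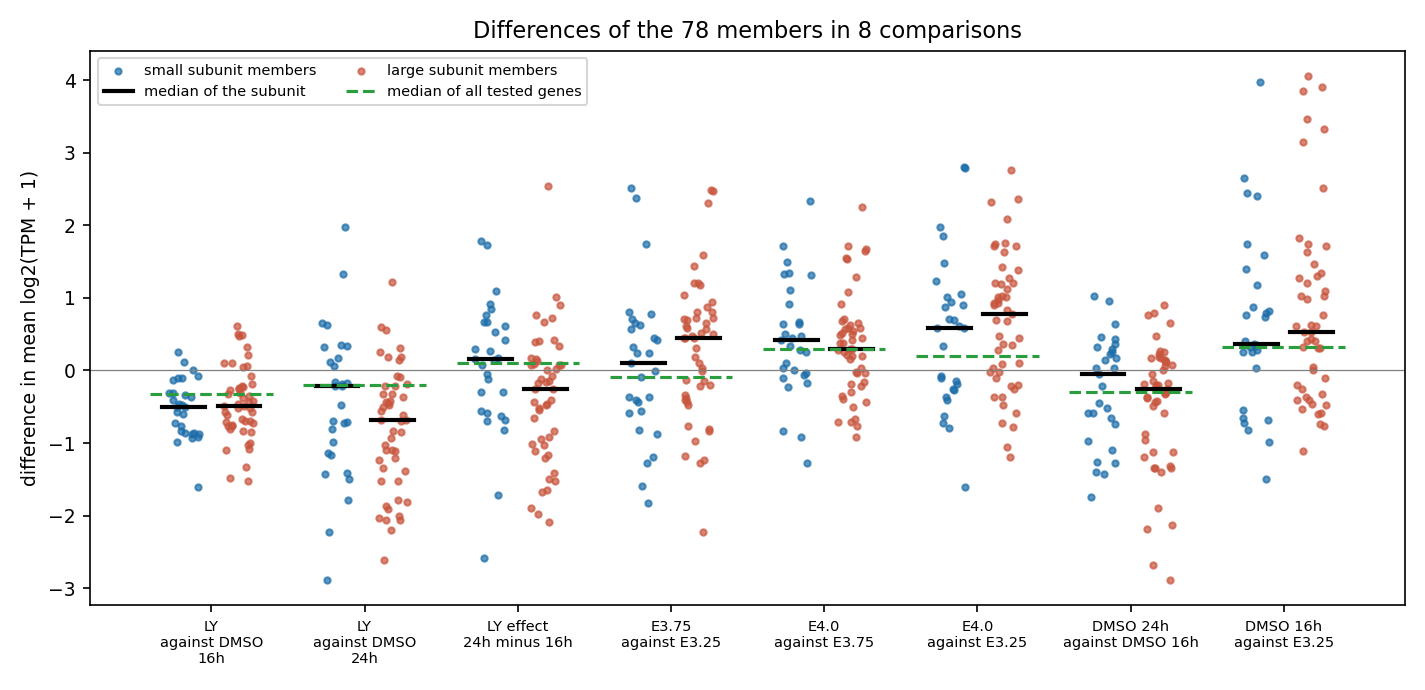
Fitted difference of each member (points, small and large subunit side by side) in the 8 comparisons, on the log2(TPM + 1) scale, with subunit medians (solid) and the median of all tested genes (dashed). At 16 hours of LY 65 of the 78 points lie below 0, and the subunit medians stand furthest apart at 24 hours of LY (-0.22 and -0.68).

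The stage comparisons share samples, since E3.25 and E3.75 each enter more than 1 of them. Between E3.25 and E3.75 no member passed the adjusted threshold in limma (0.0% of all genes did), with 4 members higher and 2 lower at an unadjusted p under 0.05, against 1.48% and 3.11% of tested genes. The median was 0.32 over members and -0.09 over all tested genes, or -0.17 and -0.29 by the log2 of the mean TPM. It rested on the E3.25 experiments: 0.79 without replicate 1, -0.06 without replicate 2, and 0.19 without E3.75 replicate 1. Mrps35 (2.51), Mrpl35 (2.49) and Mrpl13 (2.47) had the largest positive differences, and Mrpl3 (-2.23), Mrps25 (-1.83) and Mrps6 (-1.59) the largest negative ones. These sizes also turned on single experiments: with each left out they ran from 1.24 to 3.78 for Mrps35, 1.29 to 3.69 for Mrpl35 and 1.05 to 3.90 for Mrpl13. For Mrpl3 the values ran from -3.06 to -1.41, for Mrps25 from -3.30 to -0.37 and for Mrps6 from -3.13 to -0.05.

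Mrpl3, a protein near the peptidyl transferase centre, had its lowest values among fresh embryos at E3.75. It was at 5.82 and 6.54 at E3.25, 4.78 and 3.13 at E3.75, and 5.84 and 6.58 at E4.0. The E3.75 experiments lay below all 4 others. Of the 11680 tested genes 2303 had E3.75 wholly below E3.25, and 3264 had E4.0 wholly above E3.75. The difference from E3.25 had an adjusted p of 1.0, and that of E4.0 from E3.75 was 2.26 (SE 0.82, adjusted p = 0.283).

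From E3.75 to E4.0 no member passed, against 1.41% of all tested genes. At an unadjusted p under 0.05 there were 3 members, all higher, against 8.38% of tested genes higher. The median was 0.36 over members and 0.29 over all genes, or -0.03 and 0.13 by the log2 of the mean TPM. Mrps14 (2.33), Mrpl3 and Mrps25 (1.72) were furthest above, and Mrps35 (-1.28), Mrps24 (-0.92) and Mrpl39 (-0.91) furthest below. Most of these turned on single experiments. Leaving each out gave 0.27 to 4.40 for Mrps14, 1.43 to 3.09 for Mrpl3 and 0.26 to 3.18 for Mrps25. It gave -1.43 to -1.13 for Mrps35, -1.80 to -0.03 for Mrps24 and -1.62 to -0.20 for Mrpl39. Primitive endoderm markers moved in the same comparison: their mean log2(TPM + 1) was 3.68 to 4.29 in the E4.0 experiments and 1.75 to 2.73 at E3.75, with 3 of 9 past the adjusted threshold. Their part in the members' differences was not tested.

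From E3.25 to E4.0, again none passed, against 1.67% of all tested genes, and 6 members had an unadjusted p under 0.05, all higher, against 9.36% of tested genes higher. The median difference was 0.68 over members and 0.20 over all genes, 0.59 for the small and 0.78 for the large subunit. By the log2 of the mean TPM it was -0.15 over members and -0.12 over all genes. With genes detected as a covariate the member median was 0.15. Without E3.25 replicate 1 it was 1.15, without E3.25 replicate 2 0.09, and without E4.0 replicate 2 0.27.

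Mrpl42 had the smallest adjusted p of the members in any comparison (0.132). It was at 5.38 and 4.55 at E3.25, 5.95 and 5.61 at E3.75, and 6.42 and 8.22 at E4.0. The stages did not overlap, but E4.0 lay wholly above E3.25 in 3078 of the 11680 tested genes. For Mrpl42 E4.0 was 2.36 above E3.25 (SE 0.74). Without E4.0 replicate 1 the difference was 3.26 and its adjusted p 0.0427, and without E4.0 replicate 2 they were 1.46 and 0.625. Mrps21 (2.80), Mrps14 (2.79) and Mrpl13 (2.77) had larger differences with larger errors. Mrps21 was at 7.08 and 3.09 at E3.25, and its value turned on these experiments. Without replicate 1 its difference was 4.79 and its adjusted p 0.0259, and without replicate 2 they were 0.81 and 0.942. For Mrpl13 leaving out an experiment gave 1.39 to 4.16, and for Mrps14 2.27 to 3.30. Mrps6 (-1.61), Mrpl10 (-1.19) and Mrpl37 (-1.06) were lowest, with -2.64 to -0.59, -2.40 to 0.02 and -2.02 to -0.11 when an experiment was left out.

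The 24-hour DMSO cultures were compared with the 16-hour ones. No member passed, against 0.00856% of all tested genes, and 6 had an unadjusted p under 0.05, all lower and all of the large subunit, against 10.2% of tested genes lower. The median was -0.22 over members and -0.29 over all genes, or 0.20 and -0.02 by the log2 of the mean TPM. It was 0.10 without the 3-cell DMSO 16-hour replicate 1, -0.36 and -0.47 without the other 16-hour experiments and -0.10 without 24-hour replicate 2. All 8 trophectoderm markers lay below 0 as well (median -0.76), as did 8145 of the 11680 tested genes. The part of these markers was not tested. Mrpl35 was lowest (-2.89, SE 0.99, adjusted p = 0.355), with Mrpl47 (-2.68) and Mrpl1 (-2.19). Mrps36 (1.03), Mrps10 (0.96) and Mrpl57 (0.90) were furthest above.

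Cultured embryos were also compared with fresh ones, 16-hour DMSO against E3.25. No member passed (0.0514% of all tested genes did), and 14 members had an unadjusted p under 0.05, all higher, against 11.4% of tested genes higher. The median was 0.48 over members and 0.32 over all genes, or -0.31 and -0.14 by the log2 of the mean TPM. With genes detected as a covariate the member median was -0.04. It was 1.12 without E3.25 replicate 1, 0.19 without E3.25 replicate 2 and 0.17 without DMSO replicate 1. Mrpl35 was at 2.44 and 0.83 at E3.25 and 6.66, 5.35 and 5.05 in culture, a difference of 4.06 (SE 1.10, adjusted p = 0.171). It was found in 26.3% of E3.25 cells and in every cultured one. Mrps18c (3.98) and Mrpl47 (3.91) followed. Trophectoderm markers also lay above E3.25 here, 7 of 8 (median 0.64), as did 7779 of the 11680 tested genes. DMSO replicate 1 was highest in these markers, and their part was not tested. Mrpl33 was at 4.28 and 1.84 at E3.25 and 7.34, 6.74 and 6.66 in culture (3.85, adjusted p = 0.161). Mrpl1, which binds near the exit tRNA, was at 0.33 and 0.64 at E3.25 and at 4.50, 3.16 and 3.24 in culture, so that it was found in 15.8% and 96.8% of the cells. Mrps18a (-1.49), Mrpl4 (-1.11) and Mrps15 (-0.98) were lowest.

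Genes that work with the mitochondrial ribosome gave no call in any comparison either. Of the 5 mitoribosome proteins with other symbols, none had an unadjusted p under 0.05 for LY. All 5 lay below 0 at 16 and at 24 hours (medians -0.26 and -0.26, against -0.33 and -0.20 over all tested genes). Ptcd3, a small subunit protein, was lowest at 24 hours (-1.67), then Dap3 (-0.75), and Chchd1 (-0.56) at 16 hours, then Aurkaip1 (-0.30). Of 22 tested assembly and RNA modification factors, 2 were lower at an unadjusted p under 0.05 at 16 hours, where 5.08% of all tested genes were, and 0 at 24 hours, with medians of -0.59 and -0.60. Dhx30 (-1.73) and Rpusd4 (-1.69) led at 16 hours, and Mpv17l2 (-1.45) and Mrm3 (-1.36) at 24 hours. All 14 translation factors lay below 0 at 16 hours (median -0.77), as did 76.4% of all tested genes. Mtfmt (-1.17) and Mrrf (-1.11) led there. At 24 hours 11 of 14 did (median -0.18), as did 7854 of the 11680 tested genes, and Mtrf1l (-1.46) and Tsfm (-1.21) led.

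Of the 19 tRNA-charging enzymes tested the median was -0.22 at 16 hours and -0.18 at 24 hours. Tars2 (-1.56) and Sars2 (-1.26) had the largest differences at 16 hours, and Sars2 (1.12) and Lars2 (-1.09) at 24 hours. Of 10 genes of mitochondrial transcription and its regulators, Polrmt, the mitochondrial RNA polymerase, was -1.31 at 16 hours and -2.49 at 24 hours (adjusted p 0.854 and 0.899), and Gabpa was -1.26 and -1.02. The 13 mitochondrially encoded proteins had medians of -0.74 and -0.01 for LY at the 2 times, with mt-Nd4l (-2.62) and mt-Co3 (-1.85) furthest at 16 hours and mt-Co2 (-1.55) and mt-Co3 (-1.46) at 24 hours. Between DMSO at 24 and 16 hours all 13 lay below 0 (median -3.29), with 12 at an unadjusted p under 0.05 and none past the adjusted threshold. Of all tested genes 10.2% were lower at that p, and their median was -0.29. Cytosolic ribosomal protein genes had a median LY difference of 0.01 at 16 hours and -0.69 at 24 hours, beside -0.49 and -0.65 for the mitochondrial ones.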

How the data were processed

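The authors deposited 1 table of TPM values with 170 columns, each matched to a sample by title; 16 of the 186 labelled samples were not analysed here. The submitters' processing notes name RSEM 1.3.3, STAR 2.7.9a, cutadapt 2.9, bcl2fastq 2.20.0 and the build mm10; settings are not given in the sources used here. Gene coordinates are those of the GENCODE vM21 annotation of mm10. A pair of columns at E3.25 that correlated at 0.824 (0.783 with any other cell) was averaged, and a pair in 24-hour LY (0.594 against 0.724) was kept apart, leaving 169 cells. No cell was filtered or called a doublet.

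For each gene, log2(TPM + 1) was averaged over the cells of an experiment, with a pseudocount of 1, which understates changes of low genes. limma 3.58.1 (R 4.3.3; lmFit, contrasts.fit, eBayes with trend) was fitted to all 18 experiments of 7 groups, with 8 comparisons and Benjamini-Hochberg adjustment over 11680 genes at 0.05. The script was tested on simulated data. LY and DMSO experiments share dates, per the labels; deviations from group means of the same date correlated at 0.393, 0.121 and 0.317 at 16 hours and 0.231, 0.12 and 0.073 at 24 hours, so a block by date was an alternative. The others were the pseudocount, scale, filter, normalization, covariate, sequencing run, cell quality, repeat columns and leaving out each experiment.

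Members and gene lists were chosen with earlier results of these data known. The members named are those past the threshold, the 3 largest differences in each direction, the highest and lowest levels and spreads, and Mrps18a, Mrps18b, Mrps18c, Mrps12, Mrpl12 and Mrps36; of other lists, those past the threshold or the 2 largest differences. Other members named were chosen after their values were seen. The subunits by structure and the bacterial-type classes were written after the values were seen. The NRF1 and YY1 motifs were shortened to their cores after a search with longer forms had been seen.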

Additional observations from a re-analysis of the deposited data

Results flagged for a closer look

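For 2 members the LY difference had one sign on every 16-hour date and the opposite sign on every 24-hour date, as did 2.67% of all tested genes. Mrpl44 was lower with LY at 16 hours (-0.64, -1.58 and -1.76 by date) and higher at 24 hours (0.41, 1.35 and 1.91), and its 24-hour minus 16-hour effect was 2.55 on the log2(TPM + 1) scale. Mrpl27 was higher at 16 hours (0.12, 1.17 and 0.14) and lower at 24 hours (-1.24, -0.80 and -0.76), with an effect difference of -1.41. The sign pattern itself was not tested. The interaction term in limma gave an adjusted p of 1.0 for each. Exons of both genes overlap a gene on the other strand, Wdfy1 for Mrpl44 and Eme1 for Mrpl27; Eme1 was at -1.16 and -0.67 for LY at 16 and 24 hours.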

How the results depend on the processing

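No member was called in LY against DMSO under any alternative run. A replicate block by date was fitted for the LY comparisons only, and 0 members were called with it. Each date of a culture time holds 1 DMSO and 1 LY experiment, so the block can change errors but not fitted differences. The member medians of -0.49 (16 hours), -0.65 (24 hours) and -0.12 (their difference) were therefore bound to stay. Members were called only in stage and culture comparisons with E3.25, with run 2 cells alone or in some fits with an experiment left out. With run 2 cells alone there were 3 from E3.25 to E4.0 (Mrpl1, Mrpl13 and Mrpl33). For 16-hour DMSO against E3.25 there was 1 (Mrpl33, adjusted p = 0.0452 in limma). Run 2 left 2 cells in E4.0 replicate 2. The share of all tested genes called with run 2 cells alone is not given here, so these counts have no background. For 16-hour DMSO against E3.25 Mrps21 was at 4.45 without E3.25 replicate 1 and at 0.46 without replicate 2.

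The member median moved with the scale, with detection, with the sequencing run and with single experiments. On the log2 of the mean TPM it was 0.06 for LY at 24 hours, -0.17 from E3.25 to E3.75, -0.15 from E3.25 to E4.0 and -0.31 for DMSO at 16 hours against E3.25. With genes detected as a covariate it was -0.01 and -0.18 for LY at 16 and 24 hours, -0.17 from E3.75 to E4.0, 0.15 from E3.25 to E4.0, 0.26 for DMSO at 24 against 16 hours and -0.04 for DMSO at 16 hours against E3.25. In cells with 5000 or more genes detected it was -1.08 for LY at 24 hours, where LY replicate 1 kept only its 5155-gene cell. With run 2 cells alone it was -0.33 from E3.75 to E4.0 and -0.11 from E3.25 to E4.0. The cause was not tested. Leaving out each experiment gave -0.76 to -0.14 and -0.84 to -0.34 for LY at 16 and 24 hours and -0.39 to 0.14 for their difference. It gave -0.06 to 0.79 from E3.25 to E3.75, 0.26 to 0.45 from E3.75 to E4.0 and 0.09 to 1.15 from E3.25 to E4.0. It gave -0.47 to 0.10 for DMSO at 24 against 16 hours and 0.17 to 1.12 for DMSO at 16 hours against E3.25.

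The small minus large difference of medians was 0.46 for LY at 24 hours. It was 0.13 on the log2 of the mean TPM, -0.14 with run 2 cells alone, 0.88 in cells with 5000 or more genes and 0.14 to 0.48 with an experiment left out, lowest without LY replicate 1. For the difference of LY effects it was 0.42, or 0.05 with run 2 cells alone and 0.73 in cells with 5000 or more genes. It was 0.29 to 0.64 with an experiment left out. At the limit of 5000 genes 24-hour LY replicate 1 kept only the cell with 5155 genes. From E3.25 to E3.75 the small minus large difference was -0.59 with run 2 cells alone (-0.44 to -0.20 left out). From E3.75 to E4.0 it was -0.12 with run 1 and 0.42 with run 2 cells (-0.13 to 0.41 left out). The other ranges with an experiment left out were -0.16 to -0.01 for LY at 16 hours, -0.28 to 0.14 from E3.25 to E4.0, -0.12 to 0.42 for DMSO at 24 against 16 hours and -0.09 to 0.18 (-0.16 with all) for DMSO at 16 hours against E3.25.

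For single members, signs were followed only for the 3 largest differences in each direction of each comparison. Among these the sign changed in 5 cases. Mrpl13 changed in the difference of LY effects in cells with 5000 or more genes (0.56), where 24-hour LY replicate 1 kept only its 5155-gene cell. Mrps6 changed with run 1 cells alone from E3.25 to E3.75 (0.90) and to E4.0 (0.68). Mrps35 changed with run 1 cells from E3.75 to E4.0 (0.14). Mrpl10 changed from E3.25 to E4.0 without E3.25 replicate 2 (0.02), and its range with an experiment left out was -2.40 to 0.02. Smaller differences were not followed. With 2 or 3 experiments a group, spreads of members around 0.88 and an unknown depth, a miss of the threshold does not show equal levels.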
